A study of Homo sapiens with 6 samples.

Results

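Immune checkpoint ligands are surface or secreted proteins through which a tumour cell restrains, or in some cases stimulates, the immune cells that contact it. Their mRNA was examined in NCI-H1975, an established line from a non-small cell lung cancer, for 10 genes chosen by symbol: CD274, PDCD1LG2, CD276, VTCN1, CD47, NECTIN2, PVR, LGALS9, CD80 and VSIR. Each symbol matched 1 of the 60960 features of the deposited table. The study holds 6 bulk RNA sequencing libraries of this line, 3 labelled siNC and 3 labelled siGFPT2. siNC is a control small interfering RNA, and siGFPT2 a small interfering RNA against GFPT2, an enzyme that starts the hexosamine pathway. No label of these libraries gives a dose, a time after transfection or a further treatment, although the RNA extraction protocol speaks of Almonertinib, of EGF and of knockdown of EGFR. Separate cultures are not stated for the replicates, and the spread that the p-values rest on may be technical. In such bulk RNA, fewer cells of a type and less RNA per cell cannot be told apart.

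The ligands fall into families that act on different receptors. CD274 (PD-L1) and PDCD1LG2 (PD-L2) bind PD-1 on T cells and lower T cell receptor signalling, and interferon gamma raises CD274 in many tumour cells through JAK and STAT proteins and the factor IRF1. CD80 binds CTLA-4 and CD28, and CD276, VTCN1 and VSIR are further members of the B7 family or its relatives. PVR and NECTIN2 are nectin-family adhesion proteins that bind the inhibitory receptor TIGIT and the activating receptor CD226, LGALS9 is a galectin that binds glycans on T cell surface proteins, and CD47 is the signal that holds back phagocytosis through SIRPA on macrophages. Several of these proteins carry N-linked glycans, whose sugar donor comes from the hexosamine pathway.

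The CD274 promoter is shown because the regulators measured here include IRF1, which acts on it, beside that of VSIR, the ligand whose mRNA level lay closest to that of CD274. The 200 bases run from 250 to 51 bases before the RefSeq transcript start (GRCh38.p14), at chr9:5450292-5450491 on the plus strand for CD274 and chr10:71773571-71773770 on the minus strand for VSIR. Capitals mark matches to GAAA and GAAA separated by any 2 bases (an IRF pattern) and to TTCNNNGAA (a STAT pattern), searched on both strands together with TGANTCA (an AP-1 pattern).
CD274: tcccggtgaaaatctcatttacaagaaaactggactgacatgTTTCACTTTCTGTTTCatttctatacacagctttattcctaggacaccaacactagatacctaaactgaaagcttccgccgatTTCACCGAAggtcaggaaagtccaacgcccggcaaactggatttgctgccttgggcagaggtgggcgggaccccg
VSIR: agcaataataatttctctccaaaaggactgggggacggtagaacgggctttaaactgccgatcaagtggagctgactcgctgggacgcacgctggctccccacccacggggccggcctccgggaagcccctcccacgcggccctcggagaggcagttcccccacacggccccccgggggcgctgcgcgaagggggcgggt

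The CD274 window held 2 overlapping matches to the IRF pattern, starting 208 and 202 bases before the transcript start, and 1 match to the STAT pattern, 125 bases before it. Windows were found for 9 of the 10 ligands, and the entry for PDCD1LG2 was missing. No other ligand's window held any of the 3 patterns, which says only that these letters are not in these windows. Among 35116 promoter windows of the same length, 2.4% held the IRF pattern, 5.5% the STAT pattern and 5.3% the AP-1 pattern. The VSIR window had a GC content of 67.5% and the CD274 window 48.0%.

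Of the 10 ligands, 6 were expressed at a mean of at least 1 FPKM (fragments per length of a gene, scaled to the depth of the library), 3 lay above 0 but under that level, and CD80 was at 0 in every library. CD276 was the most abundant, followed by PVR and NECTIN2, which were the other ligands above 10 FPKM. CD276 alone made up 43.9% to 47.5% of the summed FPKM of the 10 genes in a library, by the deposited values. The share would be lower at GENCODE 29 exon lengths, where PVR would average 45.1 FPKM beside 50.5 for CD276. These are levels per length, so they can be set beside one another, as far as the gene lengths behind the deposited values hold.

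**Figure D1:**
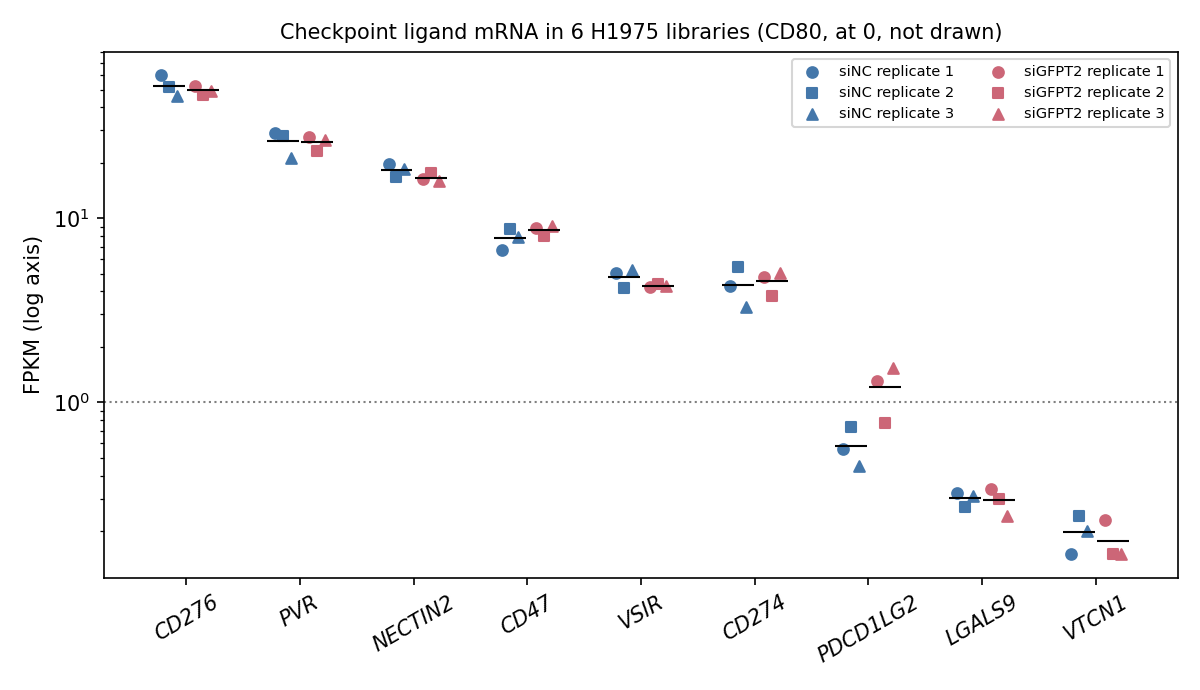
FPKM of 9 ligands in each library (log axis), with siNC in blue and siGFPT2 in red, a symbol per replicate, black bars at the group means and a dotted line at 1 FPKM. By the deposited values, the ranges of neighbouring genes are separate in this order except for VSIR and CD274. At GENCODE 29 exon lengths the ranges of PVR (37.1 to 50.6 FPKM) and CD276 (45.7 to 59.1) would overlap as well. Only PDCD1LG2 has groups that do not overlap.

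Within the B7 relatives, CD276 (B7-H3; chromosome 15, 73683966 to 73714518, plus strand) stood at 59.74, 51.55 and 46.20 FPKM in siNC replicates 1 to 3 and at 52.54, 46.92 and 49.38 in siGFPT2 replicates 1 to 3. These values rest on 6009 to 7244 fragments per library, and they place CD276 above 94.1% of the 12896 features tested, those averaging at least 1 FPKM. The highest and the lowest library were both siNC, so the siGFPT2 values lay inside the control range. VSIR (VISTA; chromosome 10, 71747559 to 71773498, minus strand) measured 5.02, 4.17 and 5.26 FPKM for siNC and 4.22, 4.41 and 4.27 for siGFPT2. The siGFPT2 libraries were close together for VSIR, with an SD of 0.0995 against 0.571 in siNC, but siNC replicate 2 lay below all of them. VTCN1 (B7-H4; chromosome 1, 117143587 to 117210960, minus strand) was near the bottom, at 0.15, 0.24 and 0.20 FPKM in the siNC libraries and 0.23, 0.15 and 0.15 in the siGFPT2 libraries, from 10 to 16 fragments per library.

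CD80 (chromosome 3, 119524293 to 119559602, minus strand) had no fragment in any library. A count of 0 allows up to 3 fragments, which for its GENCODE 29 exon length of 3201 bases is 0.0344 to 0.0428 FPKM in a single library and 0.00666 FPKM over all 6 together, for counting error only. CD80 shares 24.9% of that length with TIMMDC1 on the opposite strand, and whether strand was kept is not stated.

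The nectin-family ligands were both well expressed. PVR (CD155; chromosome 19, 44643798 to 44663583, plus strand) had 29.22, 27.98 and 21.38 FPKM in the siNC libraries and 27.56, 23.11 and 26.79 in the siGFPT2 libraries, and NECTIN2 (CD112; chromosome 19, 44846175 to 44889228, plus strand) had 19.72, 16.78 and 18.61 in siNC and 16.39, 17.61 and 15.94 in siGFPT2. PVR exceeded NECTIN2 in 6 of 6 libraries, by 1.15 to 1.68 times. The genes lie 182.6 kb apart on the same strand. The distance of PVR from its neighbours in the order depends on the gene model: the deposited values give whole fragments at 6098 bases, the smallest such length, against an exon length of 3519 in GENCODE 29. With GENCODE 29 lengths PVR would stand at a mean of 45.1 FPKM and CD276 at 50.5, a ratio of 1.05 to 1.23 over the libraries in place of 1.84 to 2.16. PVR over NECTIN2 would be 1.99 to 2.92, and both orders hold in 6 of 6 libraries.

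CD47 (chromosome 3, 108043094 to 108091862, minus strand) had 6.76, 8.72 and 7.95 FPKM in the siNC libraries and 8.85, 8.03 and 9.08 in the siGFPT2 libraries. Its lowest library was siNC replicate 1, and siNC replicate 2 lay above siGFPT2 replicate 2. Its receptor SIRPA, which is best known from myeloid cells, was present in the same libraries, with a mean of 22.5 ± 2.89 FPKM for siNC and of 22.5 ± 0.899 for siGFPT2 (SD, n = 3 each). LGALS9 (galectin-9; chromosome 17, 27629798 to 27649560, plus strand) was low, between 0.24 and 0.34 FPKM, from 31 to 46 fragments per library. Its value is uncertain, since near-identical gene copies on the same chromosome can take some of its reads.

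The PD-1 ligands are neighbours, with a gap of 40003 bases between them and JAK2 322.3 kb before CD274. CD274 (chromosome 9, 5450503 to 5470566, plus strand) had 4.27, 5.45 and 3.28 FPKM in the siNC libraries and 4.82, 3.79 and 5.04 in the siGFPT2 libraries, from 330 to 490 fragments per library. Its highest and lowest library were both siNC. VSIR exceeded CD274 in 3 of 6 libraries, so these neighbours in the order do not differ beyond their spread. PDCD1LG2 (chromosome 9, 5510570 to 5571254, plus strand) was lower than CD274 in 6 of 6 libraries, by 3.28 to 7.66 times. The siNC libraries had 0.56, 0.73 and 0.45 FPKM of PDCD1LG2, from 30, 39 and 27 fragments, and the siGFPT2 libraries 1.30, 0.77 and 1.54, from 72, 51 and 83. Every siGFPT2 library lay above every siNC library for PDCD1LG2, although siGFPT2 replicate 2 exceeded siNC replicate 2 by little.

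**Figure D2:**
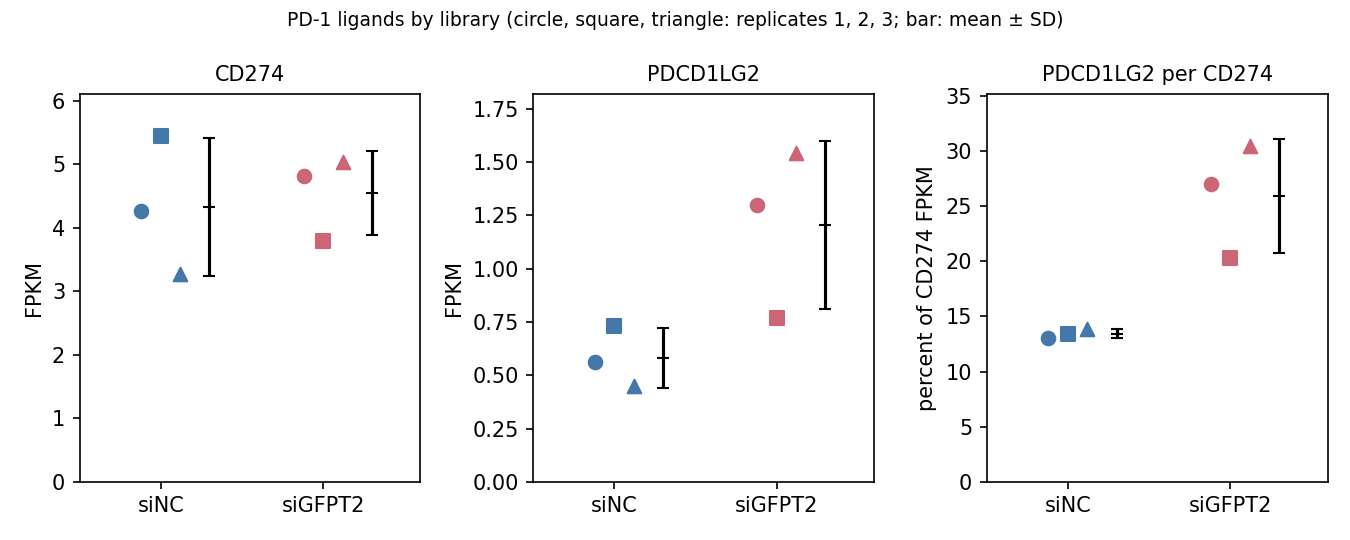
FPKM of CD274 and of PDCD1LG2 and the PDCD1LG2 level as a percent of the CD274 level, by library, with group means and SD (n = 3 each). CD274 overlaps between the groups, while PDCD1LG2 runs from 0.45 to 0.73 FPKM in siNC and from 0.77 to 1.54 in siGFPT2.

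The labels were checked on the targeted gene. GFPT2 averaged 9.24 ± 0.925 FPKM over the siNC libraries and 8.41 ± 0.734 over the siGFPT2 libraries (SD, n = 3 each), with overlapping groups and an exact two-sided permutation p of 0.4, where 3 against 3 cannot go below 0.1. GFPT2 mRNA thus gives no separation of the groups, and siGFPT2 means the libraries with that label throughout. Recovered depth was 21899321 to 27234880 fragments per library. The epithelial markers EPCAM (136 to 199 FPKM over the libraries) and the lung factor NKX2-1 (27.7 to 31.8) were present, as was every one of the 8 epithelial and lung markers, with NAPSA under 1 FPKM. siNC replicate 3 and siGFPT2 replicate 2 stood apart from the other libraries along the first principal component, which held 68.0% of the variance. In 35.4% of tested features both were lower than the other 4 libraries, and in 29.8% both were higher.

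None of the ligands passed the test for a difference between siGFPT2 and siNC. Of the 6 tested at a mean of at least 1 FPKM, 0 had an adjusted p under 0.05 with limma, against 0% of all 12896 features tested. Also, 0 had an unadjusted p under 0.05, against 0.651% of all features (84). That share lies below the threshold of 0.05 itself, so the fit was conservative and 0 of 6 says little. Without both libraries that stood apart, limma gave 514 features higher and 237 lower at an unadjusted p under 0.05. The log2 fold changes of the 6 ligands were above 0 for 2 and below 0 for 4, on the log2(FPKM + 0.1) scale that understates the change of low genes. Of all 12896 features tested, 7922 were above 0 and 4974 below. The median of the ligands was -0.04, beside 0.03 over all features tested. A 2-fold rise and a 2-fold fall both lay outside the 95% interval of each of the 6.

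CD47 had the highest of these fold changes, 0.15 ± 0.13 (SE; 95% interval -0.16 to 0.46), and CD274 followed with 0.09 ± 0.21 (-0.41 to 0.59). For CD274 this bounds the change between 0.750 and 1.51 times the siNC level. VSIR had -0.15 ± 0.13 (-0.46 to 0.15) and NECTIN2 -0.14 ± 0.11 (-0.40 to 0.12). CD276 had -0.07 ± 0.13 (-0.38 to 0.23) and PVR -0.01 ± 0.15 (-0.37 to 0.35). The adjusted p was 0.9999 for all 6 with limma, and the exact permutation p of their FPKM lay between 0.2 and 0.9. Without siNC replicate 3 the CD274 fold change was -0.09, and leaving out siGFPT2 replicate 2 as well gave 0.03. The direction of CD276 turned without siNC replicate 1, and that of PVR without siNC replicate 1, siNC replicate 2 or siGFPT2 replicate 2.

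**Figure D3:**
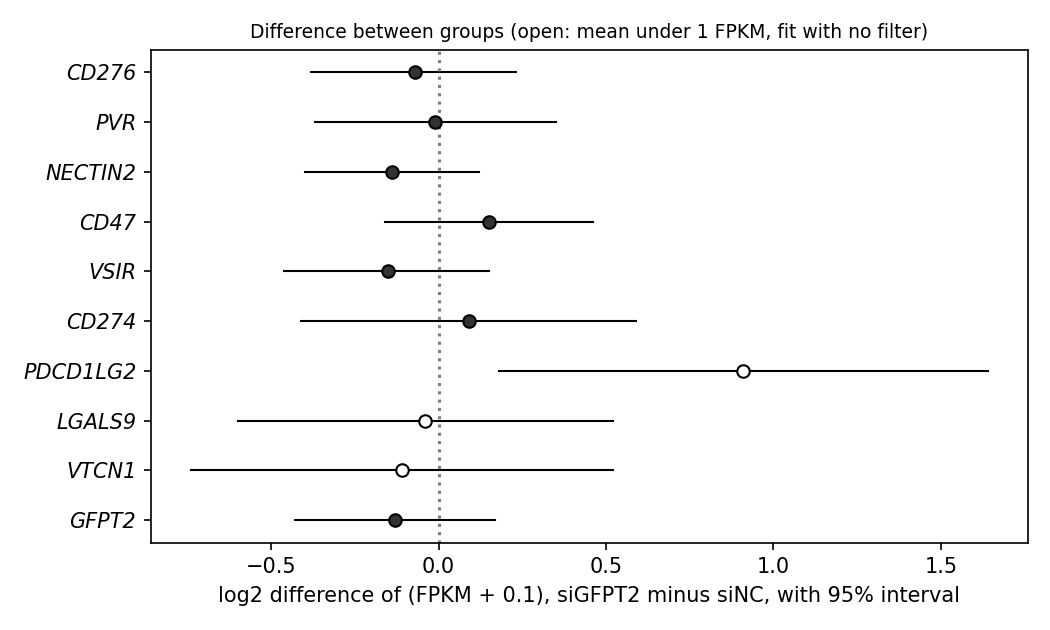
Log2 difference of (FPKM + 0.1) between siGFPT2 and siNC with its 95% interval for 9 ligands and for GFPT2; open symbols mark ligands under 1 FPKM, from the fit with no filter. The interval of PDCD1LG2 runs from 0.18 to 1.64, and the other intervals contain 0.

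PDCD1LG2 had the largest difference between the groups among the ligands and did not pass the test once adjusted. The siNC mean was 0.581 ± 0.141 FPKM and the siGFPT2 mean 1.20 ± 0.393 (SD, n = 3 each), a ratio of means of 2.07. Because its mean of 0.892 FPKM over the libraries lies under the minimum of 1 FPKM, it was fitted with no filter, together with all 36981 features above 0 in any library. That fit gave a log2 fold change of 0.91 ± 0.30 (SE; 95% interval 0.18 to 1.64), with unadjusted p = 0.0225 and adjusted p = 1 in limma, and 0 features passed. In the same fit 2.04% of features had an unadjusted p under 0.05 (754). PDCD1LG2 was the 1 ligand of 9 above 0 whose groups did not overlap, against 5.03% of the 36981 features in either direction and 2.40% with siGFPT2 higher. The exact permutation p was 0.1, the smallest that 3 against 3 allows.

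The direction of the PDCD1LG2 difference was the same in all 16 other fits run, with log2 fold changes from 0.47 with a pseudocount of 1 to 1.17 without siGFPT2 replicate 2. The adjusted p in these fits ran from 0.517 to 1. The unadjusted p was under 0.05 in 11 of the 16. It rose to between 0.0721 and 0.0885 with limma when siNC replicate 1 or 3 or siGFPT2 replicate 1 or 3 was left out. Without both siNC replicate 3 and siGFPT2 replicate 2 the fold change was 1.03 (unadjusted p = 0.0140, adjusted p = 0.517 with limma). With a minimum mean of 0.5 FPKM, chosen after the values were seen, limma gave an adjusted p of 0.9999 (0.0193 unadjusted), where 1% of 15354 features had an unadjusted p under 0.05. limma-voom on fragments recovered from the FPKM steps gave a log2 fold change of 0.99 and an adjusted p of 1 (0.0199 unadjusted), where that share was 0.697%. Among 2458 features with a mean between 0.5 and 1 FPKM, 3.17% had a log2 fold change at or above that of PDCD1LG2.

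Relative to its neighbour, PDCD1LG2 stood at 13.1%, 13.4% and 13.8% of the CD274 level in siNC and at 27.0%, 20.3% and 30.5% in siGFPT2, a comparison chosen after the values were seen. The groups did not overlap in this ratio (exact permutation p = 0.1, the smallest possible). The siNC libraries were close together in the ratio, although CD274 itself ranged from 3.28 to 5.45 FPKM among them. With 30, 39 and 27 PDCD1LG2 fragments in siNC, counting error is wider than that spread, so no stable ratio can be read from it. PDCD1LG2 is also made by macrophages and dendritic cells, so the markers of other cell types stand beside it here. Of 16 immune cell markers, the B cell gene CD79A and the myeloid genes CSF1R and CD14 were above 1 FPKM in every library. The other 13 summed to 0.589, 1.19 and 0.891 FPKM in the siNC libraries and 2.35, 0.956 and 1.45 in the siGFPT2 libraries. Of the 13, 5, 6 and 5 were at 0 in siNC and 2, 4 and 2 in siGFPT2. A 0 can turn on 1 fragment here, as CD2 and CD3E had 0 or 1 fragment per library and CD3D 0 to 2. No share over all features was taken for these counts of 0. The pan-leukocyte gene PTPRC stayed under 0.02 FPKM in every library and the B cell gene MS4A1 was at 0 in all. Of these 13, 7 had a higher mean in siGFPT2. Among the 12896 features tested, all at higher mean levels than these 13, 7922 had a log2 fold change above 0. For 2 of the 13 the groups did not overlap, with siGFPT2 higher, against 2.40% of the 36981 features above 0 in any library. The macrophage gene CD163 was at 0 in the siNC libraries and at 0.57, 0.02 and 0.02 FPKM in siGFPT2, from 75, 3 and 3 fragments. FCER1G, a signalling subunit of Fc receptors, had 0.14, 0.33 and 0.38 in siNC and 0.87, 0.50 and 0.56 in siGFPT2, from 3 to 19 fragments per library. The myeloid genes TYROBP and ITGAM had lower means in siGFPT2 (0.138 and 0.0448 FPKM) than in siNC (0.266 and 0.0538), with overlapping groups. siGFPT2 replicates 1 and 3 were the highest of the 6 libraries both for the sum of the 13 markers and for PDCD1LG2. siGFPT2 replicate 2 was the lowest siGFPT2 library for both. This order depended on leaving out CD79A, CSF1R and CD14. The sum of all 16 markers was instead highest in siGFPT2 replicate 2 (51.9 FPKM) and lowest in siGFPT2 replicate 3 (46.9 FPKM). Most of that sum was CD79A, which ranged from 37.6 to 43.1 FPKM over the libraries. CD14 averaged less in siGFPT2 (2.18 FPKM) than in siNC (2.44 FPKM), while CSF1R and CD79A averaged slightly more. The 8 stromal markers summed to 9.01 to 10.9 FPKM in siNC and 9.37 to 12.6 in siGFPT2. Most of that sum was COL1A1 (5.74 to 8.23 FPKM over the libraries) and COL1A2 (2.17 to 3.04). They were the only 2 of the 8 with a mean of at least 1 FPKM, and PDGFRB was the next, at a mean of 0.456 FPKM. The part of other cells' RNA in the PDCD1LG2 difference was not tested.

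The remaining low ligands showed smaller differences. In the fit with no filter, VTCN1 had a log2 fold change of -0.11 (95% interval -0.74 to 0.52) and LGALS9 of -0.04 (-0.60 to 0.52), both with an adjusted p of 1 with limma. Their groups overlapped, and with 10 to 46 fragments per library the intervals run from 0.598 to 1.43 times the siNC level for VTCN1 and from 0.659 to 1.43 times for LGALS9. CD80 gave no fold change.

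Several ligands differed between libraries of the same group. CD274, CD276 and PVR each had their lowest values in siNC replicate 3 and siGFPT2 replicate 2, the libraries that stood apart. These are 3 of the 6 ligands tested, beside 35.4% of all features tested. In siNC replicate 3 the log2 deviation from the mean of the other siNC libraries was -0.54 for CD274, -0.42 for PVR and -0.26 for CD276, and in siGFPT2 replicate 2 the corresponding values were -0.37, -0.23 and -0.12. CD47, NECTIN2 and VSIR deviated by -0.16 to 0.20 in the same comparisons. PDCD1LG2 was low in these libraries as well, by -0.42 and -0.80. The slope of library deviations on gene length was -0.081 and -0.055 in the libraries that stood apart and 0.027 to 0.048 in the others. Its part in the ligands' values was not tested beyond the fit with this slope as a covariate, in which the 6 ligands tested kept an adjusted p of 0.6945 or more with limma.

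**Figure D4:**
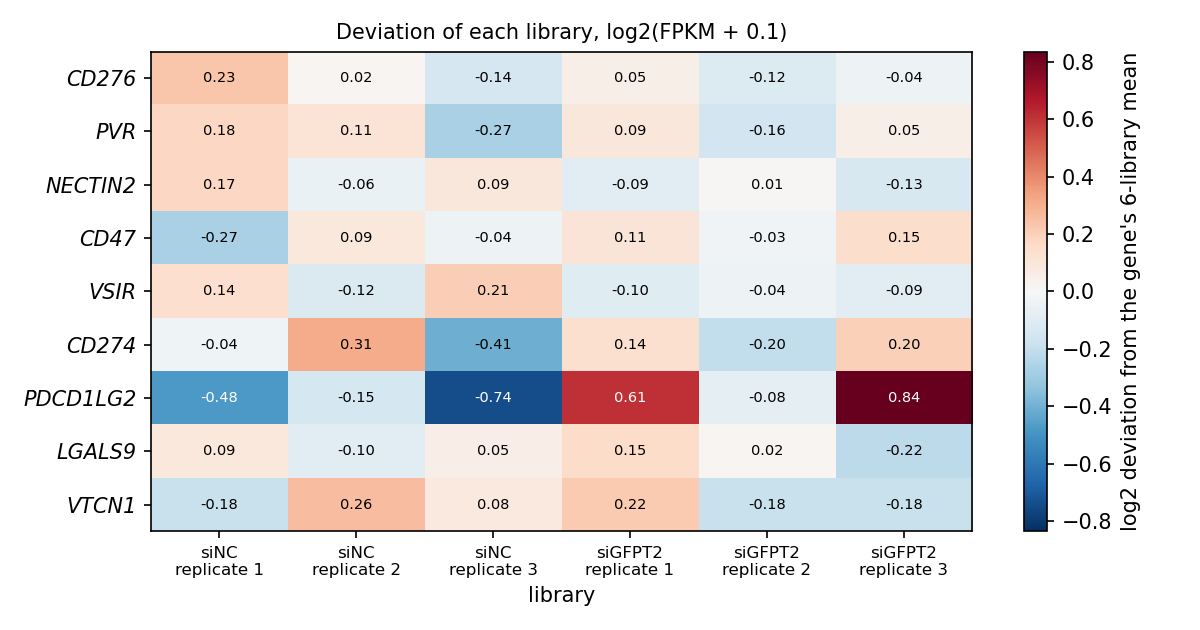
Log2(FPKM + 0.1) of 9 ligands in each library as a deviation from the gene's mean over the 6 libraries (red higher, blue lower). CD274, CD276 and PVR are lowest in siNC replicate 3 and siGFPT2 replicate 2, as are 35.4% of all features tested. PDCD1LG2 is highest in siGFPT2 replicates 1 and 3.

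Other ligands of the same receptor families were read from a list of 27 genes, of which 17 had a mean of at least 1 FPKM. Of these 17, 0 passed limma's adjusted test, 0 had an unadjusted p under 0.05 (0.651% of all features tested) and 0 had groups that did not overlap (3.53%), and the median log2 fold change was 0.03. The most abundant were LGALS1, a galectin that binds T cell glycoproteins, with means of 1278 ± 373 FPKM for siNC and 1209 ± 256 for siGFPT2, CD24, the ligand of Siglec-10, at 39.3 ± 3.80 and 40.8 ± 0.916, and LGALS3 at 35.9 ± 8.30 and 37.7 ± 4.93 (SD, n = 3 each). The smallest p among them belonged to CD58, which engages CD2 on T cells. Its siNC mean was 3.56 ± 0.652 FPKM and its siGFPT2 mean 4.53 ± 0.720, and the log2 fold change of CD58 was 0.34 (95% interval -0.08 to 0.77; unadjusted p = 0.0976, adjusted p = 0.9999 with limma). HMGB1, the nuclear protein that binds TIM-3 when released, followed with 0.21 (-0.26 to 0.68). CD86, the other ligand of CD28 and CTLA-4, stayed at or under 0.04 FPKM in every library.

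The receptors that these ligands engage were mostly low: 15 of 21 had a mean under 0.1 FPKM and ICOS was at 0 in every library. Apart from SIRPA, LAG3, an inhibitory receptor of T cells, was the only one of the 21 to reach a mean of 1 FPKM, with 1.19 ± 0.0221 in siNC and 1.03 ± 0.117 in siGFPT2 (log2 fold change -0.20, 95% interval -0.58 to 0.19; adjusted p = 0.9999 with limma). The groups did not overlap for LAG3, against 3.53% of the 12896 features tested, in either direction. TNFRSF9, the receptor 4-1BB, followed at 0.629 ± 0.130 and 0.718 ± 0.0874 FPKM. PDCD1, which encodes PD-1, lay between 0.05 and 0.15 FPKM.

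The regulators of these ligands were nearly all expressed, 29 of 30 at a mean of at least 1 FPKM and JAK2 below it. Of these 29, 0 passed limma's adjusted test and 0 had an unadjusted p under 0.05 (0.651% of all features tested). Their log2 fold changes were above 0 for 18 and below 0 for 11, beside 7922 above and 4974 below over the 12896 features tested. The median of the 29 was 0.08, and 0.03 after centring each library on its median. That centring moved the median of all features from 0.03 to -0.02. The most abundant were STT3A and STT3B, the catalytic subunits of the complexes that attach N-glycans. STT3A averaged 33.0 ± 0.971 FPKM for siNC and 35.1 ± 1.88 for siGFPT2, and STT3B 20.7 ± 3.21 and 23.3 ± 3.42 (SD, n = 3 each). CMTM6, which protects PD-L1 protein from lysosomal degradation, was 20.3 ± 2.39 and 22.5 ± 1.63. SOCS1, a brake on JAK signalling, had the smallest p, at a log2 difference of -0.25 (95% interval -0.66 to 0.16; unadjusted p = 0.196, adjusted p = 0.9999 with limma), and the interferon gamma receptor gene IFNGR1 followed with 0.15 (-0.11 to 0.40). The groups did not overlap for IFNGR1 and COPS5, 2 of 29 genes, against 3.53% of all features tested. IRF1, whose protein family has a pattern in the CD274 window, had 0.02 (-0.33 to 0.36) and is named in addition to those the rule gives.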

How the data were processed

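Total RNA was extracted with TRIzol and mRNA enriched on oligo(dT) beads for paired-end libraries, per the labels' protocols. The authors deposited 1 table of FPKM values per gene and library. The tools named are DESeq2, HISAT2 and featureCounts, per the submitters' processing notes, while build and annotation were not given in the sources used here. Columns were tied to samples by title, and no column of another series was present. Symbols came from a table of gene names (60463 of 60960 features matched), and gene coordinates and exon overlaps from GENCODE 29 (GRCh38), which are not those of the deposited table.

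Fragments were recovered from the FPKM steps. All 36981 features above 0 (100.0%) came out whole within 0.0001 fragments, 53.9% of them at the GENCODE 29 exon length and the rest at the smallest length that gave whole fragments. The share is therefore partly built in.

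The comparison used limma 3.58.1 in R 4.3.3 (two-sided, with a trended prior variance) on log2(FPKM + 0.1), with group as the only term, over 12896 features averaging 1 FPKM or more, Benjamini-Hochberg adjustment over all of them and a threshold of 0.05. PDCD1LG2, VTCN1 and LGALS9 lie under that minimum and were read from the fit with no filter (36981 features). Permutation tests were exact (scipy 1.17.1). The model was tested on simulated data. Alternatives were other pseudocounts (1 and 0.01), minimum means (none, 0.5 and 5 FPKM), median centring, quantile normalization, a replicate block, each library left out, both libraries that stand apart left out, limma-voom on recovered fragments and a length slope as covariate. A planned description of protein sequences was not made. Promoter sequences are from RefSeq.

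The 10 ligands and the related lists were chosen with earlier results of these data known. Named genes are the ligands, GFPT2, and of each related list the 3 most abundant members and the 2 tested members with the smallest p. Others are named where a sentence needed them.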

Additional observations from a re-analysis of the deposited data

How the results depend on the processing

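In all 18 alternatives 0 features and 0 ligands passed limma's adjusted test, and the GFPT2 log2 fold change stayed between -0.21 and -0.06. The features at an unadjusted p under 0.05, 42 higher and 42 lower, became 31 and 59 with median centring, 32 and 59 with quantile normalization, 121 and 40 without siNC replicate 2, 30 and 24 without siGFPT2 replicate 1, 23 and 27 without siGFPT2 replicate 3, 421 and 99 without siNC replicate 3, 514 and 237 without both libraries that stand apart, 480 and 224 with the length slope as covariate, 422 and 332 with no filter, 80 and 74 with a minimum mean of 0.5 FPKM and 11 and 5 with a minimum mean of 5 FPKM. The direction turned in 6 fits of single ligands, each with 1 library left out: CD274 (-0.0923 without siNC replicate 3; over the left-out libraries -0.09 to 0.27), CD276 (0.0222 without siNC replicate 1; -0.16 to 0.02), PVR (0.0736 and 0.0426 when siNC replicate 1 or 2 was left out and 0.0661 when siGFPT2 replicate 2 was; -0.15 to 0.07) and LGALS9 (0.0489 without siGFPT2 replicate 3; -0.13 to 0.05). The cause was not tested. CD47 (0.05 to 0.23), NECTIN2 (-0.20 to -0.09), VSIR (-0.25 to -0.09), VTCN1 (-0.26 to -0.01) and PDCD1LG2 (0.47 to 1.17) kept their direction in every fit run.

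Same-numbered libraries' deviations correlated at 0.47, -0.72 and -0.57 for numbers 1 to 3. The libraries that stood apart, siNC replicate 3 and siGFPT2 replicate 2, dominate these deviations (0.79 between them). The correlations therefore cannot decide whether the cultures were paired by number. With the replicate block 0 features passed, 40 were higher and 23 lower at an unadjusted p under 0.05, and the GFPT2 fold change was -0.13. The PDCD1LG2 unadjusted p was 0.0684 with the block, and 11 of its 16 alternatives stayed under 0.05.

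PDCD1LG2, LGALS9 and VTCN1 rest on 302, 240 and 79 fragments over all libraries, which limits their precision.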

Other observations

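Of the costimulatory ligands of the TNF family, CD70 and TNFSF9 were expressed at levels near those of NECTIN2 and CD47 and were chosen here after their values were seen. TNFSF4 and TNFSF18 of the same family were near 0, with means over the libraries of 0.0374 and 0.0130 FPKM. CD70, the ligand of CD27, stood at 17.2 ± 3.46 FPKM in siNC and 15.3 ± 1.47 in siGFPT2, and TNFSF9, the ligand of 4-1BB, at 9.72 ± 1.58 and 10.01 ± 0.648 (SD, n = 3 each). Neither passed limma's test (adjusted p = 0.9999 for both), and their log2 fold changes were -0.15 (95% interval -0.55 to 0.26) and 0.05 (-0.29 to 0.39).

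CD79A, a B cell receptor subunit that served as a marker of other cells, was at 40.2 ± 1.67 FPKM in siNC and 40.3 ± 2.75 in siGFPT2, while the B cell gene MS4A1 was at 0 in every library. CSF1R, the receptor of a macrophage growth factor, was at 5.47 ± 0.969 and 5.56 ± 0.263 FPKM, with PTPRC under 0.02 FPKM in every library.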
